A study of Physcomitrium patens with 6 samples.

Results

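Hormone response genes of the moss Physcomitrella patens were taken as the gene models whose Gene Ontology (GO) terms, the controlled words for a gene's process, function and place in the cell, hold a hormone word, and no GO term of which names kinase activity, phosphorylation, transcription factor activity, transcription regulators, transporter activity, the thylakoid, the ribosome, osmotic or oxidative stress, or a response to water. The match was by these words alone, so that ion channels and copper-transporting ATPases stayed in. The hormone words were hormone, auxin, cytokinin, ethylene, abscisic, gibberell, jasmon and brassinosteroid. Of 19265 gene models at 18265 loci that had tags in any library, 379 carried such a word, 148 were left out by the other annotations, 1 as a lipoxygenase and 1 by its locus. The 229 that stayed, at 217 loci, are called the members. Among them, 7 were caught only because methylenetetrahydrofolate contains the letters of ethylene. These are folate enzymes without a hormone term, so that 222 members at 210 loci carried a true hormone term.

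Gametophytes regenerating from protoplasts were sampled at days 3, 14, 24 and 30 after protoplast isolation, on medium with ammonium tartrate and glucose under long days. The samples named chloronema and caulonema after their filament type were cells cut by laser out of living 14-day-old protonemata. Each of the 6 samples was 1 library of 21-nt tags, made after 3 biological replicates had been combined, so that no library has a replicate beside it. The paper describes days 3, 14 and 24 as protonema and day 30 as leafy shoots, whereas the deposited labels give leafy shoot for all 4 days. The captured cells were handled differently from the whole plants, which cannot be told apart from cell type where they are set beside the days. Whole plants mix cell types, and fewer cells of a type and less RNA per cell cannot be told apart in these libraries.

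Plant hormones are small molecules that are made, moved, bound and answered by separate groups of proteins. Auxin is bound by F-box proteins of the TIR1 family, which mark repressors of auxin genes for destruction, and cytokinin is sensed by membrane kinases whose signal ends at response regulators. Jasmonates are made from fatty acids in plastids and peroxisomes, abscisic acid and strigolactones from carotenoids. In mosses auxin is known to favour the passage from chloronemal filaments, which are rich in chloroplasts, to caulonemal filaments, and cytokinin is known to induce the buds from which leafy shoots grow.

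The measurement rests on tags, and the tags of the members on which the results turn are shown because each value below counts them. The capitals mark the NlaIII site at which the cDNA was cut, the sequence runs 5′ to 3′, and site 1 is the CATG nearest to the 3′ end of the transcript.
TIRA2 (Pp1s16_2V6.1), site 1: CATGgcatatacttattctac
TLP1A (Pp1s12_347V6.2), site 3: CATGtatagtgatcaatatat
TLP1A (Pp1s12_347V6.2), site 5, listed at day 24: CATGcggcagaacgagaaatc
ARR3 match (Pp1s10_378V6.1), site 1: CATGgaaaactacgaaggggc
ATSTE14B match (Pp1s112_210V6.1), site 1: CATGgtatttacaggtttttt
ATSTE14B match (Pp1s112_210V6.2), site 1: CATGaagtagggatgtattca
OPR2 match (Pp1s1158_3V6.1), site 1: CATGgggatgttcaaacagat
Two-pore channel (Pp1s258_30V6.1), site 1: CATGtgattttgaacatccaa
Two-pore channel (Pp1s45_277V6.1), site 1: CATGttgagcgctgaaatgga
CCD8 (Pp1s14_419V6.1), site 1: CATGtaggtaagatatgtaag
Pp1s96_157V6.1, site 1: CATGccactccgtacaatttc
Pp1s402_38V6.1, site 1: CATGgagctttttataaagct
Pp1s33_197V6.1, site 4, listed at days 3 and 14: CATGgagagcactgttgagaa
Pp1s33_197V6.1, site 1, listed in the other libraries: CATGaaatctaggttatagtt
The pairs show why a site has to be read beside a ratio. The models of the ATSTE14B match at locus Pp1s112_210 end in different tags and are counted apart, and Pp1s33_197V6.1 is listed with another tag from day 24 on. Of the tested members, 84 of 94 had the same site in both libraries for day 14 against 3, 77 of 97 for day 24 against 14, 80 of 95 for day 30 against 24 and 43 of 45 for caulonema against chloronema.

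The tags assigned to genes ranged from 1733082 in chloronema to 7027742 at day 14, and day 30 held 2281272. A level, in normalised tags, is the tag count of a gene model per 1000000 gene tags after scaling of the libraries by TMM (trimmed mean of M-values), whose factors lay between 0.832 and 1.20. For each gene model, tags of the libraries compared entered a two-sided exact binomial test, adjusted by Benjamini-Hochberg over all gene models tested. A call of higher or lower required more than 100 tags in either library, a ratio beyond 2-fold, p below 0.01 and an adjusted p below 0.001. The test compares libraries and not conditions, and the 95% intervals given in parentheses cover counting error only. Where a library lists no count for a gene model, 0 was used, and the ratio, computed as if 3 tags had been seen, is only a bound. The reason for such gaps is unknown. The lists of chlorophyll-binding and rhizoid markers matched 0 gene models by name, so that the labels of the captured tissues could not be checked that way. The 57 gene models with a photosystem term, a list added after the data had been seen, summed to 26832 normalised tags in chloronema and 21429 in caulonema, while their median level was 185 in chloronema and 200.5 in caulonema, and of 46 tested 4 were higher and 7 lower in caulonema. On the days their sums were 8460 (day 3), 37492 (day 14), 20257 (day 24) and 21765 (day 30), and 48 of 52 tested rose from day 3 to day 14. The part of these differences in the results on the members was not tested.

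The members were a minor share of the transcripts. Their part of all gene tags was 0.851% at day 3, 0.537% at day 14, 0.700% at day 24, 0.727% at day 30, 0.494% in chloronema and 0.640% in caulonema. Day 3 held the highest summed share and chloronema the lowest, and both ranks rested on 1 member, Pp1s141_102V6.3. Without it, a setting chosen after seeing the data, the shares were 0.698%, 0.472%, 0.676%, 0.714%, 0.490% and 0.636%, with day 30 highest and day 14 lowest. Of the 229 members, 145 had tags in all 6 libraries and 19 in 1 library only, and 111 passed 100 tags in at least 1 library while 118 did not and could not be called in any comparison. Between 27 members at days 3 and 14 and 66 in chloronema, the shallowest library, were listed at 0. Pp1s141_102V6.3, the most abundant member, is annotated as a DNA-binding transcription cofactor that responds to hormone. It had 1656 normalised tags at day 3, 792 at day 14, 237 at day 24, 129.8 at day 30, 35.4 in chloronema and 30.3 in caulonema. Its level fell from day 3 to day 14 and again to day 24, and the captured tissues lay far under the day-14 library from whose stage they came. Day 30 listed another tag site than the other libraries.

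Among the 111 members over 100 tags, 31 had their highest level at day 3, 11 at day 14, 26 at day 24, 27 at day 30, 4 in chloronema and 12 in caulonema. In percent these were 27.9%, 9.91%, 23.4%, 24.3%, 3.604% and 10.8%. All 9003 gene models over 100 tags peaked there in 19.4%, 16.5%, 20.6%, 19.7%, 13.8% and 10.02% of cases. The share of members was above that of all gene models at day 3 and under it at day 14 and in chloronema, and no test was made of these shares.

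**Figure D1:**
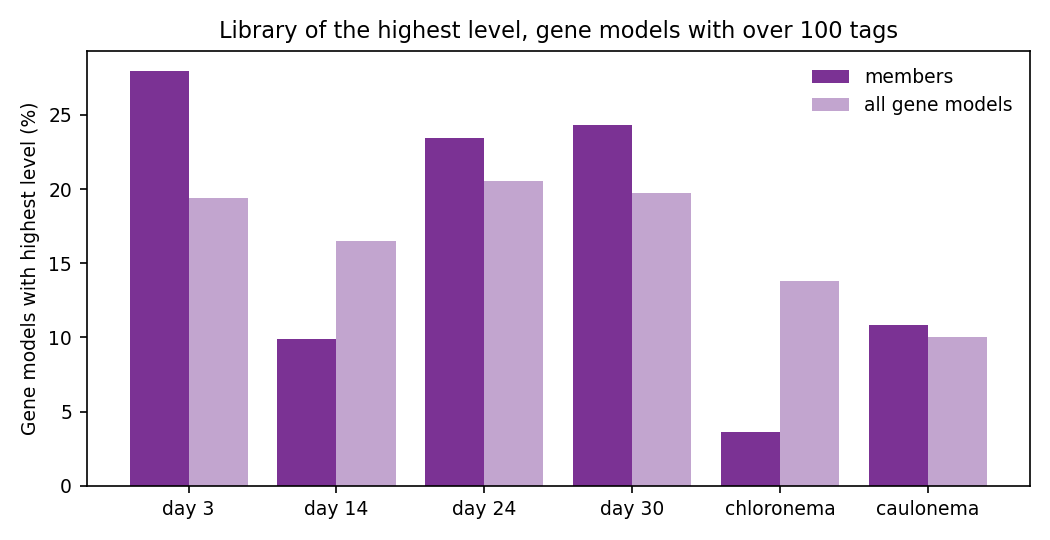
Library in which a gene model had its highest normalised level (x axis), in percent of the 111 members and of all 9003 gene models with over 100 tags in any library (y axis). Day 3 held the highest level of 27.9% of members and chloronema of 3.604%.

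From day 3 to day 14 more members fell than rose. Of 94 tested, 26 fell and 13 rose, which is 27.7% and 13.8%, where 20.3% of all 7710 tested gene models fell and 20.1% rose. The median log2 ratio was -0.35 over the members and 0.07 over all tested. From day 14 to day 24 the balance was the other way, with 31 of 97 members higher and 16 lower, or 31.96% and 16.5%, against 23.2% and 26.4% of 7913 gene models. The median was 0.34 over the members and -0.06 over all. These comparisons share the day-14 library, so that a low value there enters both.

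From day 24 to day 30, 23 of 95 members rose and 35 fell, or 24.2% and 36.8%, close to the 23.2% and 39.3% of all 7267 gene models. The medians were -0.40 and -0.48. Without the filter on low counts the median of the members was 0.0245 and 41 rose. The number that fell and the values of all gene models without the filter are not given here, so no turn towards rising can be read from this. Between the captured tissues, 11 of 45 members were higher in caulonema and 4 in chloronema, or 24.4% and 8.89%, against 21.8% and 16.5% of 4292 gene models, with medians of 0.30 and 0.13. Without the 7 folate enzymes the members higher and lower were 12 and 26 of 92 for day 14 against 3, 30 and 15 of 94 for day 24 against 14, 22 and 33 of 92 for day 30 against 24, and 10 and 4 of 44 for caulonema against chloronema.

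**Figure D2:**
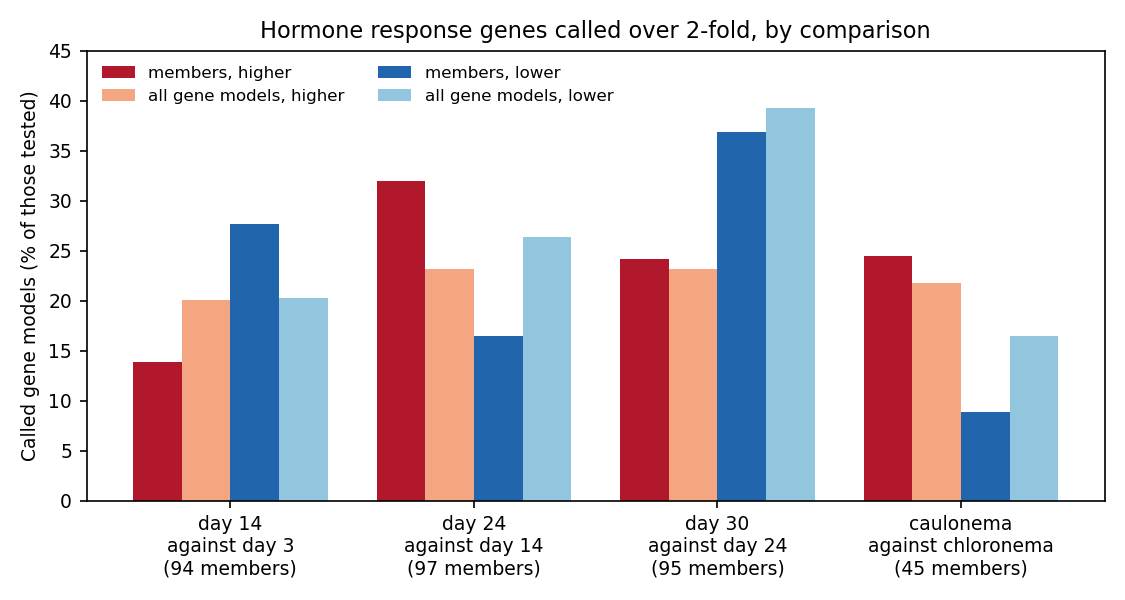
Percent of tested members and of all tested gene models called higher (red, orange) or lower (dark and light blue) in each comparison, with the number of members tested under each. Members fell in 27.7% of cases from day 3 to day 14 and rose in 31.96% from day 14 to day 24.

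The calls between the captured tissues depended on the scaling. With total gene tags 15 members were higher in caulonema and 2 lower, against 27.7% and 11.9% of all gene models, and with the deposited TPM 24 were higher and 0 lower, against 46.1% and 6.17%. The median over all gene models moved from 0.13 with TMM to 0.38 and 0.89 on the log2 scale. The calls of every comparison also rested on counting error alone. In an edgeR exact test with an assumed coefficient of variation between libraries of 0.4, members higher and lower were 1 and 2 for day 14 against 3 (all gene models 1.31% and 2.24%), 0 and 0 for day 24 against 14 (0.859% and 0.695%), 0 and 7 for day 30 against 24 (3.43% and 7.07%), and 0 and 0 for caulonema against chloronema (0.21% and 0.0233%). Where no variation between libraries can be measured, the true value is not known.

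Across the 3 comparisons of days, 108 members were tested at least once, of which 91 were called in 1 or more, 31 in 2 and 11 in all 3. Adjacent comparisons share a library, so courses are set beside those of all gene models, without a test. Of 86 members tested in both comparisons that share day 14, 14 were lower at day 14 and higher at day 24, which is 16.3% against 7.40% of 7025 gene models, and 5 were higher and then lower, 5.81% against 11.5%. Another 2 rose in both, 2.33% against 0.925%, and 1 fell in both, 1.16% against 1.40%. Of 90 members tested in both comparisons that share day 24, 12 rose at day 24 and fell at day 30, 13.3% against 12.8% of 6901 gene models, and 6 fell and then rose, 6.67% against 8.33%. Here 4 rose in both, 4.44% against 3.00%, and 1 fell in both, 1.11% against 4.72%.

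By their hormone terms, 65 members belong to signalling, 116 to response, 37 to metabolism, 15 to transport and 6 to binding, and a member can be in several lists. Signalling members fell at day 14 and rose at day 24 more often than the reverse. None of 22 tested rose from day 3 to day 14 and 7 fell, and 11 of 26 rose from day 14 to day 24 while 2 fell. These counts were 0 and 7 under each of 4 other scalings at day 14, and 11 or 12 rose and 1 or 2 fell at day 24. From day 24 to day 30, 6 of 25 rose and 8 fell, and 2 of 11 were higher in caulonema and 0 lower, where other scalings gave 1 to 7 higher. Of all gene models, 46.1% were higher in caulonema with the deposited TPM and 27.7% with total gene tags. For the days the shares of all gene models under other scalings are not given, and the shares below are those with TMM. Response members had 11 of 54 higher and 13 lower at day 14, 12 and 11 of 52 at day 24, 13 and 20 of 52 at day 30, and 5 and 3 of 24 in caulonema. Metabolism members were 2 higher and 5 lower of 17 at day 14, 6 and 2 of 19 at day 24, 4 and 6 of 17 at day 30, and 3 and 1 of 9 in caulonema. All gene models were called higher and lower in 20.1% and 20.3%, 23.2% and 26.4%, 23.2% and 39.3%, and 21.8% and 16.5% of cases in the order of the comparisons, and no difference of a list from these shares was tested. By hormone, the 29 auxin members had 1 of 12 tested higher and 3 lower at day 14, 4 of 11 higher and 0 lower at day 24, and 3 of 12 higher and 5 lower at day 30. Of 5 gibberellin members, 0 of 1 tested rose and 1 fell at day 14, 2 of 2 rose at day 24, and 0 of 2 rose and 1 fell at day 30. The 138 members whose terms name no hormone had 10 of 60 higher and 17 lower at day 14, 15 and 14 of 60 at day 24, 15 and 21 of 60 at day 30, and 5 and 3 of 29 in caulonema. These 138 include the TIR1-like receptors and the ARR3 match described below. The auxin and cytokinin lists, which go by the word for the hormone, therefore leave them out.

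**Figure D3:**
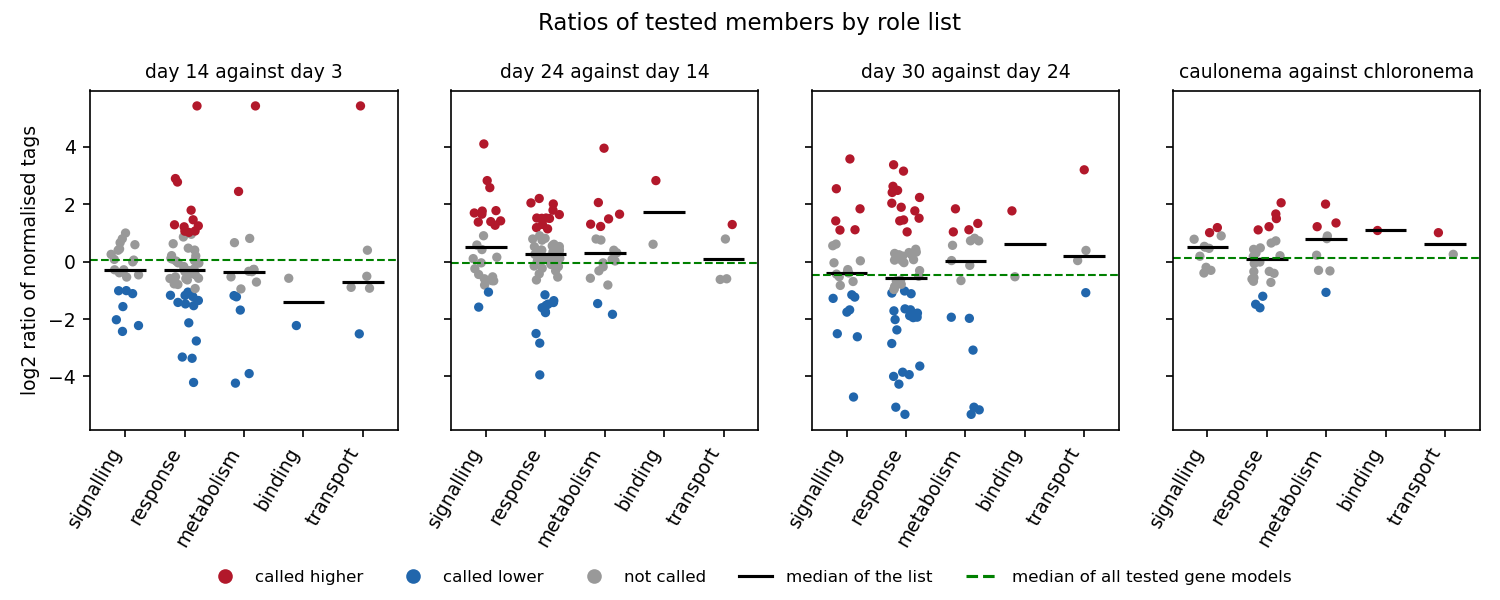
Log2 ratio of normalised tags (y axis) of each tested member in the 4 comparisons, by role list (x axis). Points are members, coloured by call. Black bars are list medians and the green dashed line is the median of all tested gene models. Signalling members had 0 calls above and 7 under the line at day 14, and 11 above and 2 under at day 24.

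The binding list holds 6 gene models, all with a protein named as a TIR1-like auxin receptor as best match. Of these, Pp1s12_347V6.1, another model of the TLP1A locus, had 2 tags in chloronema and none listed elsewhere. TIRA2 (Pp1s16_2V6.1), whose Arabidopsis match is the auxin receptor AFB3, had 32.1 normalised tags at day 3, 6.84 at day 14, 48.2 at day 24, then 33.4 at day 30. Chloronema listed it at 0 and caulonema at 4.23. Day 14 and the captured tissues, which were also 14 days old, were thus low, and days 3, 24 and 30 high. It fell 4.68-fold (3.31 to 6.77) from day 3 to day 14 and rose 7.04-fold (5.04 to 10.1) from day 14 to day 24. The change to day 30 was not called. TLP1A (Pp1s12_347V6.2) had 20.5, 13.7, 20.7 and 70.4 normalised tags at days 3, 14, 24 and 30, with 16.5 in chloronema and 35.5 in caulonema. Its closest Arabidopsis match is COI1, the F-box protein that perceives jasmonate in that species. TLP1A was highest at day 30, 3.39-fold (2.67 to 4.32) above day 24, although with another tag site listed at day 24, and it was 2.14-fold (1.41 to 3.35) higher in caulonema than in chloronema, where the sites were the same.

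TIRA1 (Pp1s44_198V6.1) was never over 100 tags and not tested. Its tags numbered 50, 18, 73 and 31 at days 3, 14, 24 and 30, while chloronema held 19 and caulonema 21. The tag site listed at days 3 and 14 differed from that of the other libraries. TIRB2 (Pp1s196_87V6.1), like the next gene named only to complete the list, had 16, 10, 42, 26, 2 and 29 tags in the same order, and Pp1s137_148V6.1 had 64, 22, 0, 8, 2 and 31. In normalised levels day 14 was the lowest of the 4 days for TIRA2, TLP1A, TIRA1 and TIRB2, which was seen after the values were known, and not for Pp1s137_148V6.1, which was listed at 0 at day 24.

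**Figure D4:**
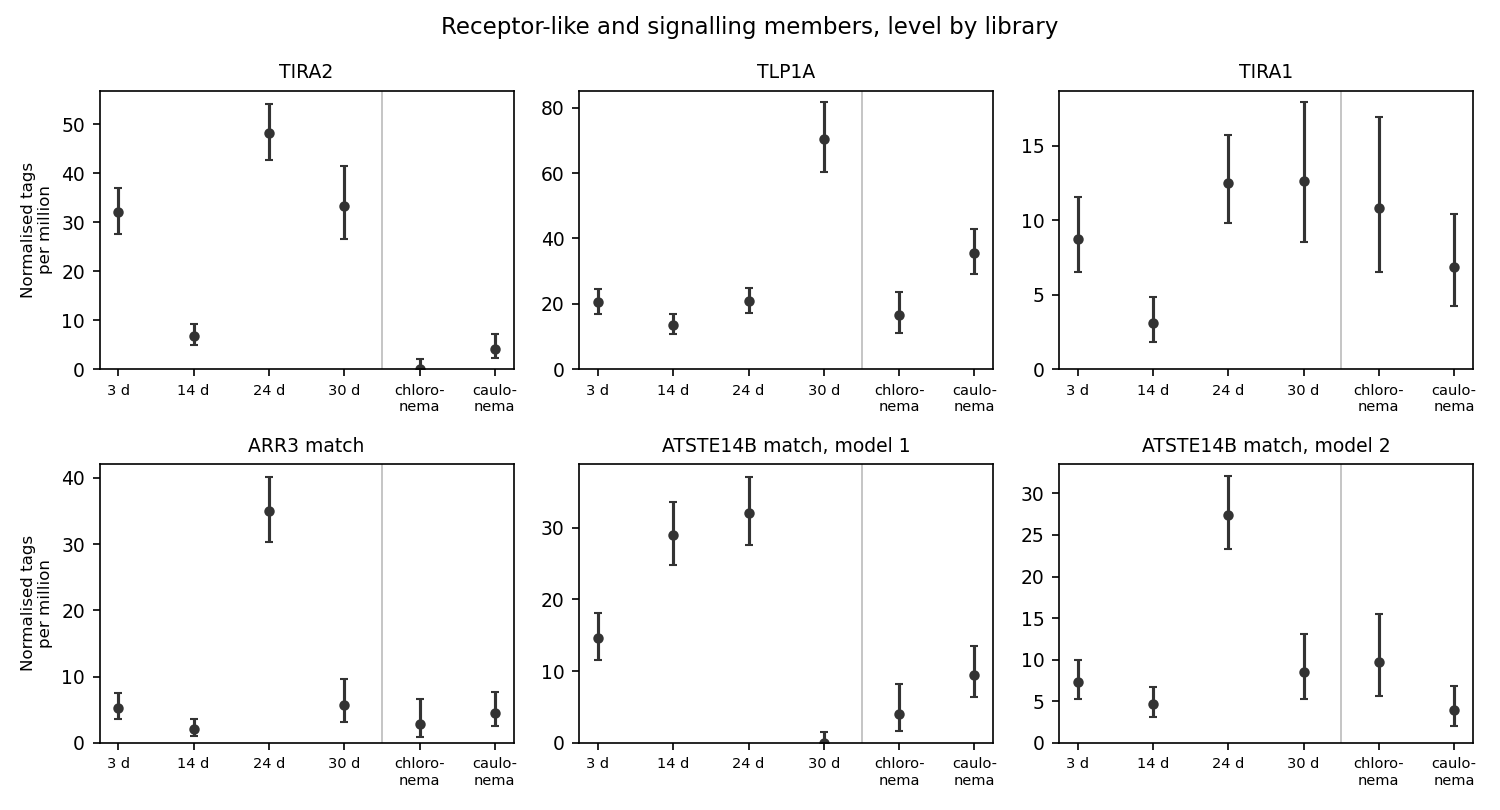
Normalised tags per 1000000 gene tags (y axis, each panel from 0) of 3 members with a TIR1-like best match and 3 signalling members in the 6 libraries (x axis). Points are levels in 1 library each and bars are exact 95% Poisson intervals, which cover counting error only. TIRA2 had 6.84 at day 14 and 48.2 at day 24, and the ARR3 match stood out at day 24 with 35.0.

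Among other signalling members, the ARR3 match (Pp1s10_378V6.1) showed the steepest rise at day 24. ARR3 in Arabidopsis is a response regulator that cytokinin induces and that dampens cytokinin signalling. Levels in normalised tags were 5.26 at day 3, 2.05 at day 14, 35.0 at day 24, 5.70 at day 30, 2.85 in chloronema and 4.56 in caulonema. Day 24 stood above all the other libraries, 17.0-fold (9.55 to 33.5) over day 14, and the level fell 6.14-fold (3.58 to 11.4) to day 30. Pp1s30_74V6.1, 1 of 7 members with a cytokinin term and the only such member over 100 tags, had 166, 176, 593 and 112 tags on the 4 days, and also rose to day 24, where another tag site was listed than at day 14, and fell to day 30. It lay outside the rule for named genes and was chosen after its values had been seen.

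ATSTE14B, an enzyme that methylates prenylated proteins and takes part in abscisic acid signalling in Arabidopsis, is the match of both models of locus Pp1s112_210. Pp1s112_210V6.1 had 14.5, 28.9 and 32.1 normalised tags at days 3, 14 and 24, was listed at 0 at day 30, and had 3.99 in chloronema and 9.44 in caulonema. Pp1s112_210V6.2 had 7.36, 4.62, 27.4 and 8.55 on the 4 days, 9.69 in chloronema and 3.91 in caulonema. The models differed in where they moved. For Pp1s112_210V6.1 day 30 lay at least 26.3-fold lower than day 24, and Pp1s112_210V6.2 rose 5.94-fold (3.93 to 9.29) from day 14 to day 24, where Pp1s112_210V6.1 had a ratio of 1.11 (0.896 to 1.37) and was not called. Tags that match more than 1 gene were removed by the authors, and how tags common to models of 1 locus were treated is not stated.

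Pp1s88_1V6.2, with an auxin signalling term and terms of nucleotide-sugar synthesis, had 173, 85.4, 275 and 113 normalised tags at days 3, 14, 24 and 30, with 74.7 in chloronema and 108 in caulonema. It fell 2.02-fold (1.81 to 2.26), rose 3.22-fold (2.91 to 3.57) and fell 2.43-fold (2.14 to 2.77) in turn. Pp1s263_3V6.1, which shares these terms, went another way, with 16.6, 5.99, 3.77 and 44.8 on the days, and was 11.9-fold (7.46 to 19.7) higher at day 30 than at day 24. Its captured levels were 21.7 in chloronema and 37.1 in caulonema, which were not called apart. Pp1s323_82V6.1, a ligase of hormone-mediated signalling, ranged between 79.8 in chloronema and 215 at day 24 and was called in 0 of 4 comparisons. Its chloronema value came from another tag site than the other libraries. Between days the Arf6/ArfB-family small GTPase Pp1s28_112V6.1, of a family that directs vesicle traffic, fell 2.02-fold (1.67 to 2.44) from day 3 to day 14 and was not called afterwards.

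The SNF2 family DNA-dependent ATPases, which remodel chromatin, came in through abscisic acid signalling. Pp1s33_329V6.1 had 10.2, 13.7, 35.8 and 26.5 normalised tags on the 4 days, 5.13 in chloronema and 14.0 in caulonema, and rose 2.62-fold (2.01 to 3.43) from day 14 to day 24. Only chloronema listed another tag site for it. Pp1s223_99V6.1 had 24.0 at day 3, 4.45 at day 14, 1.37 at day 24, 2.44 at day 30, 0 in chloronema and 1.95 in caulonema. Its level was highest at day 3, and it was 5.40-fold (3.53 to 8.55) lower at day 14, at the same tag site. The 8 tags of day 24 and the 6 of caulonema were listed at other sites. Across the 23 members with an abscisic acid term, 0 of 6 tested rose and 1 fell at day 14, 4 of 8 rose and 0 fell at day 24, and 0 of 7 rose and 3 fell at day 30, beside the shares of all gene models given above. With total gene tags 6 of 8 rose at day 24, and 1 or 2 of 6 fell at day 14 under the other scalings. The shares of all gene models under these scalings are not given. Their median log2 ratio at day 24 also moved, from -0.06 with TMM to 0.20 with total gene tags. Whether abscisic acid members differ from all gene models there cannot be read from these counts.

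Members with a jasmonate term included abundant transcripts annotated to hormone metabolism. The terms are annotations, and no hormone was measured in these libraries. Pp1s378_11V6.1, annotated to jasmonic acid metabolism with a cyclase activity in the plastid, had 389, 171, 225 and 58.6 normalised tags at days 3, 14, 24 and 30, with 383 in chloronema and 182 in caulonema. It was high at day 3 and in chloronema and low at day 30. The falls were 2.28-fold (2.11 to 2.45) at day 14 and 3.83-fold (3.22 to 4.59) at day 30, and it was 2.10-fold (1.88 to 2.36) lower in caulonema than in chloronema, a call lost with the deposited TPM and with total gene tags. Pp1s354_37V6.1, of jasmonic acid metabolism and signalling in the plastid stroma, kept between 102 at day 24 and 364 at day 30 and rose 3.56-fold (3.21 to 3.96) from day 24 to day 30.

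The OPR2 match Pp1s1158_3V6.1 is a 12-oxophytodienoate reductase, of an enzyme family that reduces precursors of jasmonic acid. Its levels were 204 at day 3, 13.7 at day 14, 56.8 at day 24, 116 at day 30, 11.98 in chloronema and 21.5 in caulonema. Day 14 and both captured tissues were low together. It fell 14.9-fold (11.9 to 19.0) from day 3 to day 14, rose 4.15-fold (3.24 to 5.36) to day 24 and 2.04-fold (1.74 to 2.40) to day 30, the last call being lost with the deposited TPM.

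Two-pore channels are calcium channels of the vacuole, and 2 of them carry the term jasmonic acid biosynthesis. Pp1s258_30V6.1 had 129, 6.84, 21.4 and 53.7 normalised tags on the days, 24.0 in chloronema and 14.3 in caulonema. Pp1s45_277V6.1 had 7.01, 37.98, 10.6 and 24.8 on the days, 65.6 in chloronema and 114 in caulonema. They were called in opposite directions. At day 14 Pp1s258_30V6.1 was 18.8-fold (13.7 to 26.5) lower than at day 3 and Pp1s45_277V6.1 5.42-fold (3.86 to 7.79) higher, and at day 24 the former was 3.13-fold (2.18 to 4.59) higher and the latter 3.57-fold (2.68 to 4.81) lower than at day 14. Each had the same tag site in all 6 libraries. The fall of Pp1s258_30V6.1 at day 14 was also called with an assumed coefficient of variation of 0.4, and the rise of Pp1s45_277V6.1 was not.

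Pp1s55_275V6.1, of jasmonic acid metabolism and fatty acid breakdown in the microbody, the class of organelle that holds peroxisomes, had 27.3, 47.7, 117 and 107.04 normalised tags on the days, 24.5 in chloronema and 98.0 in caulonema. It rose 2.46-fold (2.14 to 2.84) from day 14 to day 24, at a different tag site, and was 3.99-fold (2.89 to 5.63) higher in caulonema. Of the 16 jasmonate members, 1 of 10 tested rose and 4 fell at day 14, 3 of 10 rose and 1 fell at day 24, 4 of 8 rose and 2 fell at day 30, and 2 of 6 were higher and 1 lower in caulonema. All gene models rose and fell in 20.1% and 20.3% of cases at day 14, 23.2% and 26.4% at day 24, and 23.2% and 39.3% at day 30. In caulonema 21.8% were higher and 16.5% lower, and no difference from these shares was tested.

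**Figure D5:**
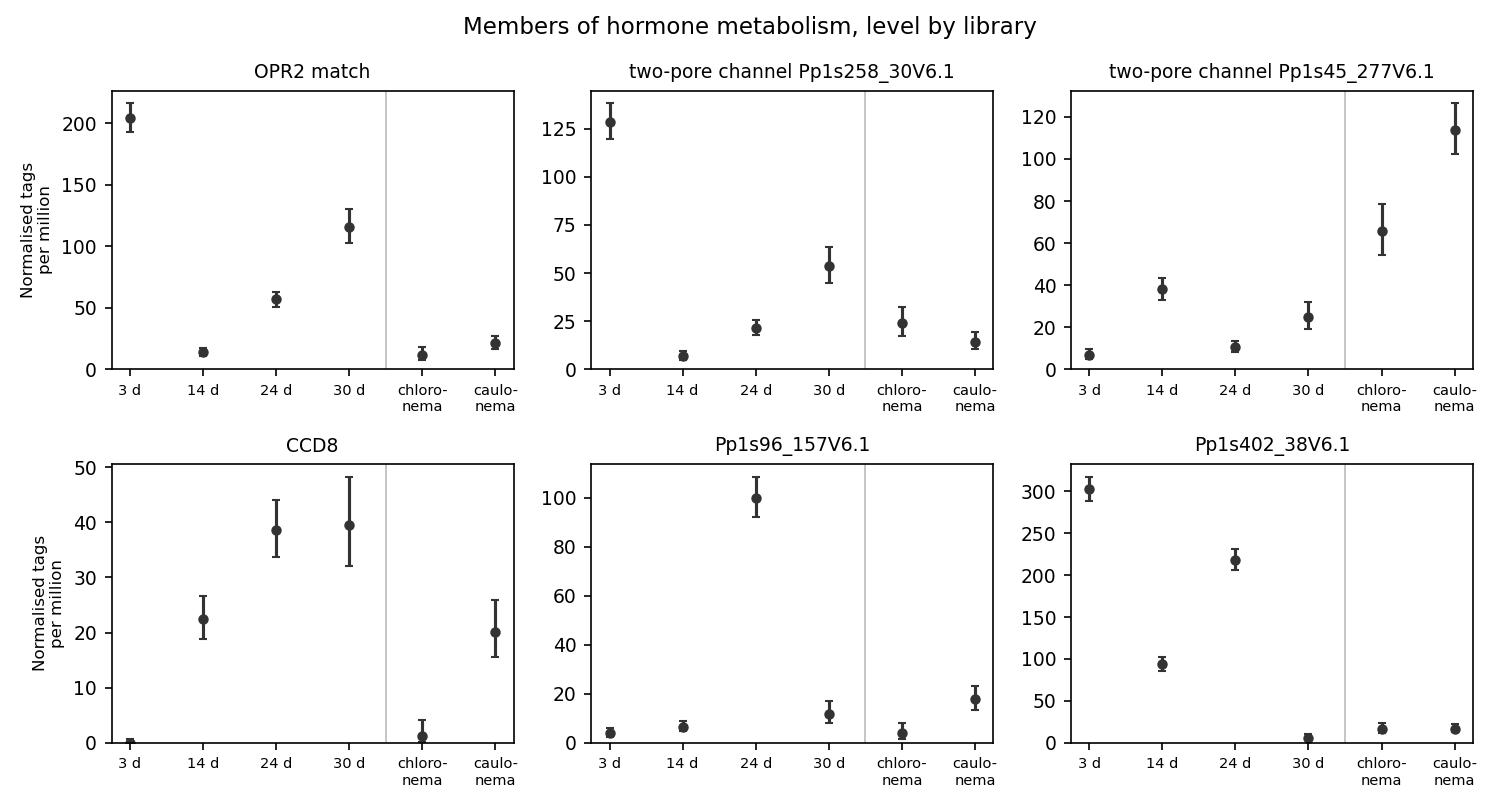
Normalised tags per 1000000 gene tags (y axis, each panel from 0) of 6 members of hormone metabolism in the 6 libraries (x axis). Points are levels in 1 library each and bars are exact 95% Poisson intervals, which cover counting error only. The two-pore channels move oppositely between days 3 and 14, and Pp1s96_157V6.1 stands at 99.98 at day 24 and at most 17.9 elsewhere.

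CCD8 (Pp1s14_419V6.1), the carotenoid cleavage dioxygenase needed to make strigolactones, was listed at 0 at day 3. Its levels were 22.4 at day 14, 38.6 at day 24, 39.5 at day 30, 1.14 in chloronema, which is 2 tags, and 20.2 in caulonema. It was at least 42.6-fold higher at day 14 than at day 3 and was not called between later days, where days 24 and 30 were level. Between the captured tissues it had at most 100 tags and was not tested. The ratio of caulonema to chloronema was 17.7 (4.70 to 149), with the 2 tags of chloronema behind its width. The rise at day 14 was the only call higher that remained among the members with an assumed coefficient of variation of 0.4.

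Pp1s96_157V6.1, annotated to abscisic acid and carotenoid metabolism, had 4.03 normalised tags at day 3, 6.50 at day 14, 99.98 at day 24, 11.8 at day 30, 3.99 in chloronema and 17.9 in caulonema. Day 24 stood apart, 15.4-fold (11.1 to 22.0) above day 14, and the level fell 8.47-fold (5.83 to 12.8) to day 30. With 583 tags at day 24, it had between 7 in chloronema and 55 in caulonema elsewhere.

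Pp1s402_38V6.1, a microbody protein of hormone metabolism, had 302, 93.8, 218 and 6.105 normalised tags at days 3, 14, 24 and 30, with 16.5 in chloronema and 16.9 in caulonema. Pp1s33_197V6.1, a microbody oxidoreductase of auxin metabolism, had 139, 96.1, 97.4 and 2.44 on the days, 18.8 in chloronema and 43.6 in caulonema. Both were lowest at day 30. The falls from day 24 were 35.8-fold (21.6 to 64.1) and 39.9-fold (18.2 to 109), each with the same tag site at days 24 and 30, and both were also called with an assumed coefficient of variation of 0.4. Pp1s23_342V6.1, with the same auxin terms and named here after its values were seen, had 374, 300, 239 and 3 tags on the days and also fell to day 30, at a different tag site.

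Auxin transport gave 15 members. Of these 1 of 6 tested rose and 1 fell at day 14, 1 of 4 rose and 0 fell at day 24, 1 of 4 rose and 1 fell at day 30, and 1 of 2 was higher in caulonema. All gene models were higher and lower in 20.1% and 20.3%, 23.2% and 26.4%, 23.2% and 39.3%, and 21.8% and 16.5% of cases in that order. These few members were not tested against those shares. Pp1s292_64V6.1, of protein metabolism at membranes, had 322, 56.3, 137 and 179 normalised tags on the days, 47.3 in chloronema and 56.3 in caulonema. Day 14 was again the lowest of the days, 5.72-fold (5.09 to 6.46) lower than day 3, and day 24 was 2.44-fold (2.14 to 2.78) higher. Days 3, 14 and 24 shared a tag site, while day 30 and the captured tissues listed another. Pp1s41_175V6.1 and Pp1s276_77V6.1 share terms of transport between nucleus and cytoplasm and of meristem development. Pp1s41_175V6.1 had 25.4, 13.3, 7.89 and 72.0 on the days, 19.96 in chloronema and 40.0 in caulonema. Pp1s276_77V6.1 had 58.9, 41.2, 26.8 and 12.6 on the days, 16.5 in chloronema and 16.9 in caulonema. At day 30 they parted, Pp1s41_175V6.1 rising 9.13-fold (6.57 to 12.9) and Pp1s276_77V6.1 falling 2.12-fold (1.44 to 3.23), a fall no longer called with total gene tags or with DESeq2 size factors.

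Response members that changed most between days 3 and 14 were of several kinds. Pp1s29_313V6.2, of defense and steroid metabolism, had 199 normalised tags at day 3, 10.8 at day 14, 8.23 at day 24, 72.9 at day 30, 13.1 in chloronema and 31.9 in caulonema. It fell 18.5-fold (14.3 to 24.2) at day 14 at the same tag site, also with an assumed coefficient of variation of 0.4, and rose 8.85-fold (6.40 to 12.4) at day 30 against a different site at day 24. Pp1s90_196V6.1, without further terms, went from 176 tags at day 3 to 18 at day 14, then to 13 at day 24, and the 3 other libraries listed it at 0. Pp1s240_49V6.1, of guanosine metabolism and stress, fell 10.3-fold (5.83 to 19.9).

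Pp1s299_74V6.1, annotated to flower development, and Pp1s199_134V6.1, an endopeptidase, rose at day 14. Pp1s199_134V6.1 had 9.99, 67.9, 86.8 and 459 normalised tags on the days, 173 in chloronema and 105 in caulonema. Its rises were 6.80-fold (5.14 to 9.14) at day 14 and 5.29-fold (4.76 to 5.89) at day 30, with no call between. Pp1s299_74V6.1 had 9.46, 70.0, 23.0 and 128 on the days, 65.6 in chloronema and 21.5 in caulonema. It alternated, 7.40-fold (5.56 to 10.02) higher at day 14, 3.05-fold (2.50 to 3.73) lower at day 24 and 5.56-fold (4.53 to 6.86) higher at day 30, with another tag site listed at day 14 than at days 3 and 24. Pp1s67_243V6.2, of the plastid and the response to radiation, had 8.93, 30.8, 27.3 and 101 on the days, and rose 3.45-fold (2.51 to 4.80) at day 14 and 3.70-fold (3.02 to 4.55) at day 30.

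The ATE1 match Pp1s10_96V6.1, of organ senescence and protein modification, had 17.9, 42.3, 2.74 and 24.0 normalised tags on the days, 37.6 in chloronema and 24.1 in caulonema. Its level fell 15.4-fold (9.30 to 27.4) at day 24, the steepest called fall of a member there. Pp1s28_157V6.1, placed in a ribonucleoprotein complex, fell 5.68-fold (4.71 to 6.90) at day 24 and rose 10.3-fold (8.51 to 12.6) at day 30, and Pp1s126_81V6.1, of the Rossmann-fold dehydrogenases, fell 7.16-fold (6.06 to 8.51) at day 24 and rose 2.04-fold (1.61 to 2.59) at day 30, a rise not called with the deposited TPM. Pp1s179_34V6.1, of the mitochondrial respiratory chain, fell 3.43-fold (2.96 to 3.98) at day 24, at a different tag site. The RUB1 match Pp1s129_28V6.2, a ubiquitin-like protein that modifies the cullins of auxin receptor complexes, had 31.2, 75.6, 28.1 and 132 on the days, 148 in chloronema and 92.1 in caulonema. Day 14, day 30 and the captured tissues were high and days 3 and 24 low.

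Pp1s184_124V6.1, a copper-transporting ATPase, had 164, 37.3, 171 and 87.9 normalised tags on the days, fell 4.39-fold (3.78 to 5.11) at day 14 and rose 4.57-fold (3.95 to 5.32) at day 24. The GRAS-type protein GRS3 (Pp1s130_153V6.1) had 25.6, 11.3, 38.9 and 17.9, and moved down 2.27-fold (1.68 to 3.08), up 3.45-fold (2.61 to 4.61) and down 2.17-fold (1.57 to 3.07) in turn, the last call being lost with DESeq2 size factors. GPB1 (Pp1s7_401V6.1), the beta subunit of a heterotrimeric G protein, had between 12.6 at day 30 and 25.4 in caulonema, and Pp1s248_84V6.1, of defense and steroid metabolism like Pp1s29_313V6.2, had between 136 in caulonema and 269 at day 3. Neither was called in any comparison in which it was tested.

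Several response members were very low or listed at 0 at day 30. The ARFA1B match Pp1s163_86V6.1 had 14, 96, 137 and 3 tags at days 3, 14, 24 and 30, 19.2-fold (6.45 to 94.5) lower at day 30 and at a different tag site, with the 3 tags of day 30 behind the wide interval. Pp1s191_77V6.1, of photomorphogenesis, had 109 tags at day 24 and was listed at 0 at day 30 and in chloronema, at least 15.3-fold lower at day 30. The PUR7 match Pp1s10_57V6.1, an enzyme of purine synthesis, had 116 normalised tags at day 24 and 22.4 at day 30 and fell 5.20-fold (3.95 to 6.98). Day 30 had the fewest tags of the day libraries, and 59 members were listed at 0 there.

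Between the captured tissues the called member with the highest ratio was Pp1s158_40V6.1, with terms of fatty acid synthesis, carboxylation of CoA and vitamin binding. It had 145, 52.0, 149 and 184 normalised tags on the days, 42.8 in chloronema and 176 in caulonema, and was 4.12-fold (3.23 to 5.32) higher in caulonema. The voltage-gated potassium channel Pp1s357_24V6.1 had 67.3 in chloronema and 212 in caulonema, 3.15-fold (2.58 to 3.86) higher. Pp1s55_204V6.1, of inositol phosphate synthesis, phospholipid metabolism and starvation, had 104 and 294, 2.82-fold (2.40 to 3.32) higher. All 3 lay between these levels at day 14, with 52.0, 101 and 194.

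In the other direction, Pp1s299_74V6.1 was 3.05-fold (2.24 to 4.20) lower in caulonema than in chloronema, the proteasome subunit Pp1s68_29V6.1 2.80-fold (2.04 to 3.88) lower at a different tag site, and Pp1s17_321V6.1, of the mitochondrial respiratory chain, 2.31-fold (1.93 to 2.77) lower, the last not called with total gene tags. Together with Pp1s378_11V6.1 these were the 4 members lower in caulonema, and none was called with the deposited TPM. Each of the auxin members Pp1s33_197V6.1 and Pp1s41_175V6.1 was higher in caulonema, 2.32-fold (1.57 to 3.503) and 2.01-fold (1.37 to 3.01), the second not called with DESeq2 size factors or with TMM over these libraries alone. The 29 auxin members do not include the TIR1-like receptors, whose terms name no hormone. Among these members 3 of 7 tested were higher in caulonema and 0 lower, where 21.8% and 16.5% of all gene models were. Those higher numbered 2 with DESeq2 size factors, 7 with the deposited TPM and 5 with total gene tags. Of all gene models, 46.1% were higher with the deposited TPM and 27.7% with total gene tags, and no difference was tested.

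Members share annotations that the rule did not use. Of 66 members placed in a membrane-bounded organelle, 2 of 19 tested rose and 8 fell at day 14, 13 of 25 rose and 0 fell at day 24, and 4 of 26 rose and 13 fell at day 30. All gene models with that term rose in 14.6% and fell in 18.3% of cases at day 14, in 20.4% and 24.2% at day 24, and in 21.2% and 39.9% at day 30, where the members had 15.4% and 50%. Among 15 members with signal transducer activity, 3 of 6 rose and 0 fell at day 24, and all gene models with that term rose in 47.2% and fell in 11.3%. Of 35 members with a stress term, 1 of 16 tested rose and 2 fell at day 14 and 2 of 14 rose and 3 fell at day 24, where all gene models with the term rose in 21.2% and fell in 23.9% at day 14 and in 20.3% and 33.2% at day 24. For 17 microbody members, 3 of 5 tested were higher in caulonema and 0 lower, where 24.4% and 20% of all microbody gene models were. The terms examined were those carried by most members, and the ones printed here are a selection among them. Left out were, among others, membrane with 42 members and binding with 36, and some comparisons of the printed terms. Of the membrane members, 1 of 20 tested rose and 8 fell at day 14, against 9.26% and 18.1% of all gene models with that term. At day 24, 8 of 19 rose and 4 fell, against 17.6% and 27.7%. No test was made.

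Among the folate enzymes caught by their spelling, Pp1s324_49V6.1, a methylenetetrahydrofolate dehydrogenase, had 18.0, 51.8, 64.5 and 0.814 normalised tags on the days, 16.0 in chloronema and 51.1 in caulonema. It fell 79.2-fold (21.8 to 656) from day 24 to day 30, where it had 2 tags, and was 3.20-fold (2.13 to 4.97) higher in caulonema.

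Hormone genes outside the members gave a wider view of the pathway. The 150 gene models with a hormone word that the rule leaves out, such as kinases and transcription factors, had 6 of 55 tested higher and 20 lower at day 14, 23 of 59 higher and 9 lower at day 24, 8 of 58 higher and 25 lower at day 30, and 7 of 27 higher and 3 lower in caulonema. The 34 gene models recognised by the name of their best match, among them ethylene, cytokinin and TIR1-like receptors and gibberellin oxidases, had 0 of 9 higher and 5 lower at day 14, 3 of 9 higher and 0 lower at day 24, 7 of 12 higher and 2 lower at day 30, and 2 of 8 higher and 0 lower in caulonema. A gene model could be in both of these groups, so they are not independent of each other. All gene models were called higher and lower in 20.1% and 20.3% of cases at day 14 and in 23.2% and 26.4% at day 24. At day 30 these shares were 23.2% and 39.3%, and in caulonema 21.8% and 16.5%. No difference of either group from these shares was tested. Medians of the named group were -1.20, 0.82, 1.75 and 0.20 on the log2 scale in the order of the comparisons, beside 0.07, -0.06, -0.48 and 0.13 over all gene models. The median of the members at day 30 was -0.40 with the filter on low counts and 0.0245 without it, and the median of all gene models without it is not given.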

How the data were processed

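Tags of 21 nt were sequenced in 6 libraries, 1 per condition, each after 3 biological replicates had been combined. To make the deposited counts of tags for each gene model, the authors removed adaptor-only, ambiguous, wrong-length and single-copy tags, allowed at most 1 mismatch to a gene model and discarded tags with hits in several genes. For this step blastn is named in the paper and Bowtie in the submitters' processing notes, with versions not given in the sources used here. In the deposited TPM the authors scaled tags to the clean tags of a library, and it entered 1 alternative only. The deposited number of the CATG site, counted from the 3′ end, served to tell whether libraries listed the same tag. The lowest listed count was 2. Gene tags per library lay between 1733082 and 7027742.

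Counts were scaled by TMM (edgeR 4.0.16, R 4.3.3) and compared by exact two-sided binomial tests (scipy 1.17.1, Python 3.11.15) with Benjamini-Hochberg adjustment over all gene models with over 100 tags in at least 1 of the libraries compared. With 1 library per condition no spread between samples could be estimated, and p-values compare libraries only. The procedure was also run on simulated counts with counting error only, which cannot show how it performs where libraries vary. The alternatives scaled by DESeq2 1.42.0 size factors, by total gene tags, by the deposited TPM or by TMM over the compared libraries, or used no filter, a filter of over 100 tags summed over both libraries, a 4-fold threshold, edgeR exact tests with an assumed coefficient of variation of 0.2 or 0.4, the same tag site, and 1 gene model per locus. Figures were drawn with matplotlib 3.10.9.

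Genes named were members over 100 tags with a named best match or a symbol, in every comparison the 5 strongest called members in each direction by the interval bound nearest to 1, and the 3 leading members of each role list. Any other gene is named as chosen after its values had been seen. The members and lists were chosen with earlier results of these data known. Symbols came from the part of a supplementary gene table at hand, with 932 rows. Of the identifiers, 0 were in the RefSeq gene table, so that no coordinates, promoters or proteins are given.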

Additional observations from a re-analysis of the deposited data

How the results depend on the processing

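No paired analysis was possible because each condition has 1 library without a replicate, and for the same reason no library could be left out. Without a filter on low counts the members higher and lower were 21 and 46 for day 14 against 3, 49 and 25 for day 24 against 14 and 20 and 10 for caulonema against chloronema, and 41 were higher for day 30 against 24, where the median log2 ratio turned from -0.40 to 0.0245. The number lower at day 30 is not given. With a 4-fold threshold they were 4 and 11, 8 and 3, 10 and 16, and 1 and 0 in the order of the comparisons. With an assumed coefficient of variation of 0.2 they were 4 and 12, 13 and 6, 14 and 22, and 2 and 0, and with 0.4 they were 1 and 2, 0 and 0, 0 and 7, and 0 and 0. The shares of all gene models are not given for the settings without a filter, at 4-fold and at 0.2. Whether members differ from all gene models there cannot be read from these counts. For caulonema against chloronema the deposited TPM gave 24 higher, 0 lower and a median of 1.05, and total gene tags gave 2 lower. The cause of these shifts was not tested, beyond the larger assumed spread or threshold itself. Of 91 called ratios of named genes, 87 stayed called with total gene tags, 87 with DESeq2 size factors, 84 with the deposited TPM, 90 with TMM over the compared libraries, 40 at 4-fold, 52 at a coefficient of variation of 0.2 and 8 at 0.4. With the same tag site required in both libraries, 79 stayed. None of the 91 changed direction, but these settings could not have turned one. A threshold or an assumed spread leaves the sign as it is. The scalings moved the ratios by less than the 2-fold that a call requires. Chloronema was the shallowest library, and 45 members could be tested between the captured tissues.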
